A study of Sus scrofa with 12 samples.

Results

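IVF ESC11, a pig embryonic stem cell (ESC) line from an in vitro fertilised embryo, was compared with pig fetal fibroblasts in 3 RNA-seq libraries of each. The comparison covered 12818 of the 20920 annotated loci in the deposited table, which lists 30012 loci in all. They are the loci whose FPKM (fragments mapped, scaled for transcript length and library size) was at least 1 in at least 3 of these 6 libraries. Of the other annotated loci, 3924 were listed at 0 in all 6 libraries and 4178 were above 0 somewhere but below the filter. At the edge of the filter, the third-highest value was 1.00145 for SAMD15, which was included, and 0.998 for PLAGL2, which was not.

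The series holds 12 polyA libraries, and the remaining 6 come from the parthenogenetic lines ESC-3 and ESC-7, which have no paternal genome and serve here only as a reference for imprinted and a few other genes. ESC11 was grown on feeder cells in KO-DMEM with 15% KSR, 20 ng/mL FGF2, 5 ng/mL ActA, 1.5 µM CH and 2.5 µM IWR-1, an inhibitor of WNT signalling. The ROCK inhibitor Y-27632 (10 µM, 24 h) was present around each passage. ESCs were sorted for the surface antigen SSEA1 on magnetic columns before RNA extraction, which was meant to take out feeder and differentiated cells. The fibroblasts were isolated at day 30 post coitum and used at passage 6, and the labels give neither a medium nor a sort for them. A single IVF line stands for the stem cells, and the labels name a fetus in the singular. Separate cultures are not named for the 3 libraries within either group, so the p-values below rest on variation among libraries alone, and that variation may be technical.

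Pluripotent stem cells keep a small circuit of transcription factors active, and grow as compact epithelial sheets joined by E-cadherin. Fibroblasts are mesenchymal cells that secrete and pull on a collagen matrix, and they keep the positional code of HOX and other patterning genes from the place where they arose. Imprinted genes are read from the maternal or the paternal copy alone, and an embryo made by fertilisation carries both copies.

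The 6 libraries were even within a group. An FPKM of at least 1 was reached by 12202 to 12226 annotated loci in ESC11 and by 11336 to 11367 in fibroblasts. The correlation of log2(FPKM + 1) across tested loci was 0.993 to 0.994 within ESC11, 0.991 to 0.993 within fibroblasts and 0.656 to 0.662 between them, over genes that are not independent replicates. Unannotated loci, which were not tested, held 76.68% to 84.1% of the summed FPKM in ESC11 and 84.14% to 92.78% in fibroblasts. The summed FPKM of annotated loci was 554079 to 594781 in ESC11 and 520435 to 557288 in fibroblasts. The rows named EEF1A1 and HSP90AB1, genes that every cell uses, were listed at 0 in all 6 libraries. A row named EF1ALPHA, another name of EEF1A1, was among the most abundant loci. A value of 0 in this table can thus be a failed estimate or signal placed on another row.

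Both cell type labels were checked against markers. POU5F1, the core transcription factor of pluripotency (chromosome 7, 27262624 to 27268634 on Sscrofa10.2), read 773, 792 and 761 FPKM in the 3 ESC11 libraries and 0, 0.0743 and 0 in the 3 fibroblast libraries. SOX2, its partner factor, read 201, 214 and 209 against 0.0163, 0.0182 and 0.0690, and NANOG, the homeobox factor of the same circuit, 103, 101 and 102 against 0, 0.0487 and 0. All 3 genes were high in every ESC11 library and near or at 0 in every fibroblast library. The summed FPKM of 7 stem cell markers was 1851 to 1913 in ESC11 and 0.0687 to 0.152 in fibroblasts. COL1A1, the main chain of type I collagen, read 12.9, 12.6 and 13.7 in ESC11 and 5389, 5419 and 5113 in fibroblasts, and VIM, the mesenchymal intermediate filament, 53.9, 49.7 and 49.2 and 6649, 6566 and 6921.

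The fibroblast markers were not at 0 in the sorted stem cells. The summed FPKM of the 10 fibroblast markers with an annotated row was 65.5 to 70.2 in ESC11 and 16089 to 16257 in fibroblasts, and VIM and COL1A1 made up most of the ESC11 sum. Means of the other markers in ESC11 were 1.44 for PDGFRB, 0.823 for COL1A2, 0.448 for PDGFRA, 0.324 for PRRX1, 0.110 for DCN, 0.0420 for LUM, 0.0153 for COL3A1 and 0.0112 for TWIST1. PDGFRA and PDGFRB thus stood at 1.14% and 0.981% of their fibroblast means. The part of this marker signal in the matrix results below was not tested, and in bulk RNA fewer cells of a type and less RNA per cell cannot be told apart. Markers of endoderm, germ cells, blood and endothelium with an annotated row all had means under 1 in ESC11. CD14, a blood marker, averaged 0.521 in ESC11 and 4.77 in fibroblasts. In fibroblasts DES, an intermediate filament of muscle, read 173, 169 and 176, while MYOD1 and MYOG, the muscle-determining factors, were listed at 0 in all 3 libraries. PAX6, a factor of neural progenitors, read 10.6, 9.29 and 9.84 in fibroblasts and 0, 0 and 0.0393 in ESC11. Of the 7 tested genes in the list of other cell types 1 rose and 5 fell, with a median of -1.92. The neuron markers went apart. TUBB3, a tubulin best known from neurons, averaged 139 ± 5.15 in ESC11 and 116 ± 5.33 in fibroblasts and was not called. SYP averaged 3.82 in ESC11 and 0.386 in fibroblasts and was higher, and STMN2 averaged 1.48 and 19.3 and was lower. FUT9, a fucosyltransferase able to make the SSEA1 epitope, read 4.96, 3.95 and 3.79 in ESC11 and 0.0113, 0.0238 and 0.0252 in fibroblasts, a log2 difference of 2.35 ± 0.09 (limma, adjusted p = 2.24e-07). FUT4, another fucosyltransferase, was similar on both sides, at means of 2.97 in ESC11 and 2.22 in fibroblasts.

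**Figure D1:**
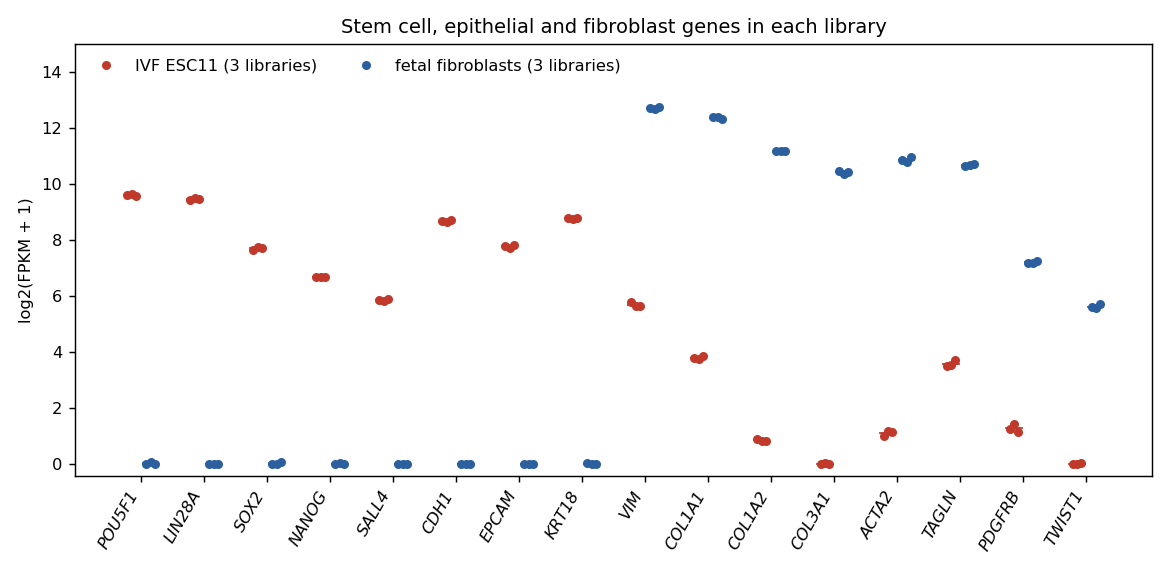
The y axis is log2(FPKM + 1), each point is 1 library and each line is a group mean. The 3 ESC11 libraries (red) are high for the stem cell and epithelial genes at the left, where the fibroblasts (blue) are near 0, and the order is reversed for the fibroblast genes at the right. VIM and COL1A1 remain above 0 in ESC11, at means of 50.9 and 13.04 FPKM.

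Of the 12818 loci, 5591 (43.6%) differed by at least 1 on the log2(FPKM + 1) scale at an adjusted p under 0.05 in limma, with 3629 (28.3%) higher and 1962 (15.3%) lower in ESC11. "Higher", "lower", "rose" and "fell" below always mean ESC11 relative to fibroblasts and a locus past both thresholds, and log2 differences are on this scale with the standard error from limma. The 3 and 3 libraries did not overlap at 11532 loci (90.0%), so a lack of overlap is the common state in this comparison. A gene near 0 in 1 group could pass the filter only through the other group, so its direction was set by the filter. The shares of 28.3% higher and 15.3% lower over all loci are the background for every count of list members below that names no other scaling. The excess of higher loci depended on scaling. The median over all loci was a log2 difference of 0.40, and 64.9% of called loci were higher. With median-ratio scaling the median was 0.035 and 48.2% of called loci were higher (2447 or 19.1% of loci against 2634 or 20.5%), and with quantile normalization the figures were 0.13 and 50.2% (2519 or 19.7% against 2496 or 19.5%). All 1962 lower loci stayed lower under both scalings, and no called locus changed direction under either. For list counts given with median-ratio scaling, the background is 19.1% higher and 20.5% lower.

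Large differences leaned the other way. A log2 difference of at least 4 was found at 202 higher and 228 lower loci, and one of at least 8 at 8 higher and 20 lower loci. In presence and absence terms, 267 loci were under 1 FPKM in every fibroblast library and at least 10 in every ESC11 library, and 187 loci were the reverse. Among the 10308 loci of at least 1 FPKM in all 6 libraries, 6747 differed by less than 1 on the log2 scale. The 12 largest rises on annotated symbols included KRT79, LIN28A, KRT18, CDH1, DNMT3B and CLDN4, and the 12 largest falls included COL3A1, COL1A2, TNC, ACTA2, S100A4 and FGF7.

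**Figure D2:**
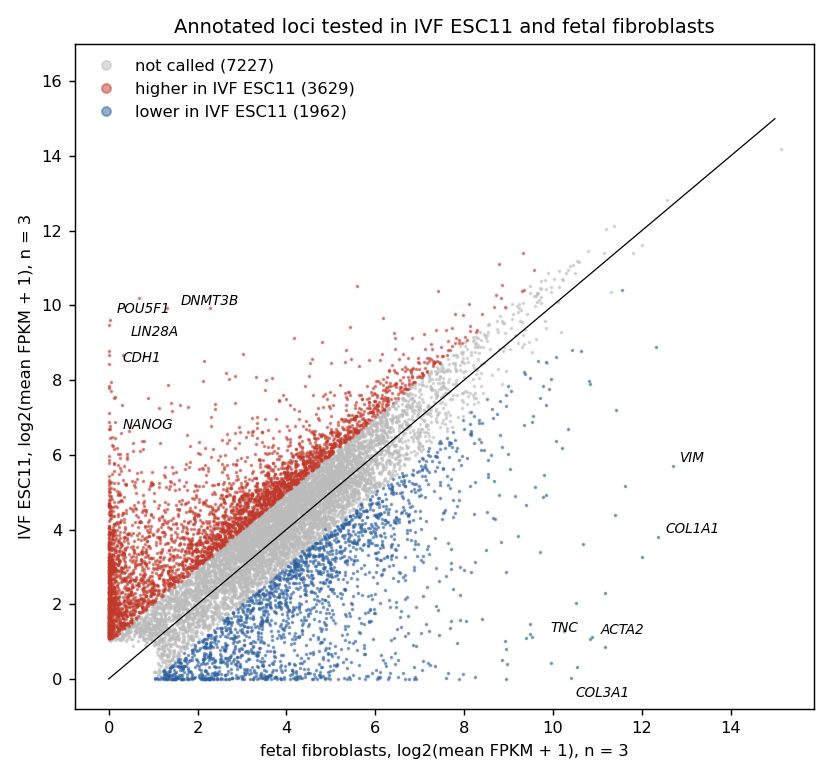
Each point is 1 of the 12818 annotated loci, placed by log2(mean FPKM + 1) in fibroblasts (x axis) and in ESC11 (y axis), n = 3 each, with equality as the black line. The 3629 higher loci are red, the 1962 lower loci blue and the 7227 others grey, and the named collagen and contractile genes lie farther from the line than most red points.

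All 14 tested core pluripotency genes rose, with a median log2 difference of 5.51, and the list went from 0.0001003% to 0.000206% of the summed annotated FPKM in fibroblasts to 0.370% to 0.390% in ESC11. The 14 genes together summed to 0.546 to 1.07 FPKM per fibroblast library, so they passed the filter through ESC11. The filter thus set their direction, and the count of 14 is no test of it. LIN28A, an RNA-binding protein that blocks let-7 maturation, read 689, 723 and 716 FPKM in ESC11 and 0, 0 and 7.78e-08 in fibroblasts, a difference of 9.47 ± 0.04 (adjusted p = 2.75e-11). POU5F1 differed by 9.57 ± 0.04 (adjusted p = 3.77e-11) and SOX2 by 7.66 ± 0.05. ZFP42, a zinc finger marker of pluripotent cells, averaged 117 ± 3.51 against 0.101 ± 0.0236 (SD, n = 3). SALL4, a zinc finger partner of POU5F1, averaged 57.3 ± 1.35, PRDM14, a repressor that protects pluripotency from epiblast signals, 42.5 ± 2.24, and TDGF1, the NODAL co-receptor, 23.9 ± 0.953. The lowest levels in ESC11 were those of DPPA4 and DPPA5, at 2.70 ± 0.549 and 1.85 ± 0.562, and both were listed at 0 in all 3 fibroblast libraries.

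Genes of the formative and primed epiblast, the pluripotent state after implantation, mostly rose. Of 13 tested, 10 rose and 3 fell, with a median of 2.76. OTX2, a homeobox factor of the primed epiblast, read 63.1, 60.8 and 59.7 in ESC11 and was listed at 0 in every fibroblast library. ZIC2, a zinc finger factor, read 39.4, 39.4 and 38.2 against 0.106, 0.340 and 0.315. TCF7L1, the repressor among the TCF factors that answer to WNT, rose from 15.2 ± 0.378 to 108 ± 6.49, whereas its relatives TCF7 and LEF1 fell. LEF1 read 0.0595, 0.0533 and 0.0690 in ESC11 and 8.35, 8.62 and 9.73 in fibroblasts, a difference of -3.22 ± 0.07. SFRP2, which binds WNT ligands outside the cell, averaged 35.5 ± 0.593 in ESC11 and 91.7 ± 2.86 in fibroblasts and was lower. FGF5, a gene of the primed state, was below the filter and its highest value in any library was 0.364.

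Of 15 naive and trophectoderm factors with an annotated row, 8 were below the filter, among them TFCP2L1, ESRRB, NR0B1, CDX2 and EOMES, with 0.306 for TFCP2L1 as their highest value in any of the 6 libraries. Of the 7 tested, 3 rose and 4 fell, with a median of -1.36. TFAP2C, a factor of trophectoderm and germ cell precursors, read 13.8, 16.1 and 15.1 against 0.0599, 0.119 and 0.0925, and KLF5, a Krüppel-like factor of the early embryo, 37.4, 39.9 and 40.5 against 7.17, 5.61 and 6.15. TEAD4, which answers to YAP in the trophectoderm, rose by 1.33 ± 0.03 (0.94 and not called with median-ratio scaling). KLF4, in contrast, was the higher factor in fibroblasts, at 23.9 ± 0.846 against 8.74 ± 0.551.

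DNMT3B, a de novo DNA methyltransferase, had the largest difference in the lists of chromatin regulators. It read 963, 965 and 971 FPKM in ESC11 and 1.28, 1.54 and 1.66 in fibroblasts, a difference of 8.60 ± 0.06 (adjusted p = 1.82e-10). Of 24 tested genes of DNA methylation and Polycomb repression, 10 rose and 2 fell (9 and 4 with median-ratio scaling), with a median of 0.72. TET1, which oxidises methylcytosine, rose from 3.33 ± 0.232 to 24.6 ± 1.04, while TET2 averaged 2.18 ± 0.121 and 4.47 ± 0.0333 and was not called. Polycomb subunits that target or vary the complexes moved in both directions. CBX2 rose by 3.42 ± 0.05, JARID2 by 3.06 ± 0.05, MTF2 by 1.79 ± 0.05 and PCGF6 by 1.96 ± 0.29, whereas EZH2, the methyltransferase, averaged 18.003 ± 0.525 and 20.2 ± 1.29 and SUZ12 30.1 ± 1.82 and 22.6 ± 0.178, and neither was called. PHF19, a relative of MTF2, was lower by a log2 difference of -1.22. BMI1, a ring finger subunit of the canonical complex, fell, with 7.80, 7.67 and 7.74 in ESC11 and 37.8, 38.95 and 39.6 in fibroblasts.

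Chromatin remodellers rose in 11 of 29 cases and fell in 2, with a median of 0.85. With median-ratio scaling 5 rose and 2 fell, beside 19.1% of all loci higher and 20.5% lower under that scaling. HELLS, a helicase needed for DNA methylation at repeats, read 122, 118 and 128 in ESC11 and 10.1, 10.8 and 10.18 in fibroblasts. CHD7, a remodeller of enhancers, rose from 2.12 ± 0.124 to 26.5 ± 0.407. The BAF complex carries 1 of a pair of interchangeable ATPases, and SMARCA2 alone of that pair was called. SMARCA2 fell, reading 2.90, 2.56 and 2.36 in ESC11 and 20.6, 19.9 and 21.2 in fibroblasts, while SMARCA4 averaged 131 ± 1.26 and 70.5 ± 3.03, a difference of 0.88 ± 0.04 that was under the threshold.

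Among RNA-binding proteins and genes of the let-7 pathway, 10 of 19 rose and none fell, with a median of 1.03 (7 and 1 with median-ratio scaling). LIN28B averaged 68.1 ± 3.29 against 0.461 ± 0.319, and MSI1, a translational regulator of progenitor cells, read 48.2, 51.8 and 54.6 against 0.176, 0.212 and 0.0719. IGF2BP1, an mRNA-stabilising let-7 target, rose from 9.08 ± 0.349 to 113 ± 1.15. HMGA1, a chromatin architectural protein, rose from 71.2 ± 4.03 to 817 ± 13.9, and its relative HMGA2, a classic let-7 target, averaged 9.48 ± 0.766 and 17.5 ± 0.642 and was not called.

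Splicing regulators moved in both directions. Of 22 tested, 12 rose and 6 fell, beside 28.3% and 15.3% of all loci, with a median of 1.01. With median-ratio scaling, however, 5 rose and 6 fell, beside 19.1% and 20.5% of all loci. ESRP1, the epithelial splicing regulator, read 64.4, 63.8 and 62.6 in ESC11 and 0.176, 0.123 and 0.195 in fibroblasts, and RBM47, another epithelial splicing factor, averaged 8.13 ± 0.698 and 0.0103 ± 0.0179. The muscleblind proteins, which favour splicing patterns of differentiated cells, all fell. MBNL1 read 3.28, 3.46 and 3.49 in ESC11 and 100.2, 98.5 and 102 in fibroblasts, a difference of -4.52 ± 0.04 (adjusted p = 4.21e-10). MBNL2 read 2.75, 2.39 and 1.96 and 40.4, 36.99 and 39.98, and MBNL3 averaged 0.809 ± 0.0916 and 3.38 ± 0.126. RBFOX2, QKI and CELF2, which act in mesenchymal and neural splicing, fell by 1.56, 1.20 and 1.03 on the log2 scale.

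Epithelial genes had the most rises of any list. Of 31 tested genes of junctions and epithelial identity, 29 rose and none fell under any of the 4 scalings, with a median of 4.71. Members near 0 in fibroblasts, such as CDH1, EPCAM and ST14, passed the filter through ESC11. The filter set the direction of such members, so the count and the scalings are no test of it. CDH1, the epithelial cadherin, read 414, 397 and 416 FPKM in ESC11 and was listed at 0 in all 3 fibroblast libraries (adjusted p = 3.32e-11). CLDN4, a tight-junction claudin, read 406, 414 and 403 against 0.186, 0.105 and 0.434, and EPCAM, an epithelial adhesion molecule, 222, 212 and 227 against values of 0. The membrane serine protease ST14 read 229, 231 and 225 against 0, 0 and 0.0178, and its inhibitors SPINT1 and SPINT2 averaged 87.4 ± 1.58 and 233 ± 2.09 in ESC11 against 0.0567 ± 0.0317 and 1.53 ± 0.536. GRHL2 and OVOL1, factors that maintain epithelia, averaged 24.2 ± 0.947 and 5.49 ± 0.409 in ESC11. CLDN6, a claudin of embryonic epithelia, was abundant on both sides, at 2714 ± 229 in ESC11 and 641 ± 114 in fibroblasts. The 2 members not called were JUP and DSC2, a plakoglobin and a desmosomal cadherin, at 180.0 ± 8.46 against 131 ± 4.26 and 45.01 ± 1.42 against 24.5 ± 0.358.

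Cadherins changed places. CDH2, the mesenchymal cadherin, read 42.2, 52.1 and 51.003 in ESC11 and 516, 433 and 625 in fibroblasts, and CDH11, the fibroblast cadherin, 7.38, 5.68 and 6.65 and 252, 241 and 273. Of 13 mesenchymal adhesion genes 11 fell and none rose, with a median of -3.40. S100A4, a calcium-binding protein of motile cells, read 1.73, 1.35 and 1.25 in ESC11 and 1291, 1238 and 1129 in fibroblasts, a difference of -8.97 ± 0.08. CD44, the hyaluronan receptor, and GJA1, a gap-junction connexin, fell by 4.82 and 4.41 on the log2 scale. ALCAM and MCAM were not called, at means of 42.6 ± 3.09 and 14.1 ± 0.790 in ESC11 against 25.8 ± 2.68 and 15.2 ± 2.14.

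Collagens had the lowest median of all lists. Of 23 tested chains 17 fell and 3 rose, with a median of -4.35, and the list held 2.397% to 2.53% of the summed annotated FPKM in fibroblasts against 0.102% to 0.108% in ESC11. COL3A1, a fibrillar chain of soft connective tissue (chromosome 15, 104067018 to 104105776 on Sscrofa10.2), read 0, 0.0459 and 0 in ESC11 and 1404, 1319 and 1375 in fibroblasts, a difference of -10.39 ± 0.04 (adjusted p = 2.75e-11). COL1A2, the partner chain of type I collagen, read 0.891, 0.777 and 0.802 and 2330.3, 2304 and 2331. COL1A1, on the highest of 4 rows with that name, differed by -8.56 ± 0.04. COL5A2, which sets fibril diameter, and COL6A3, a microfibril chain, averaged 1.32 ± 0.119 and 0.0150 ± 0.0131 in ESC11 against 720.1 ± 2.44 and 192 ± 4.31.

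The 3 collagens that rose belong to other tissues or to basement membrane. COL2A1, the cartilage collagen that early embryonic epithelia also make, read 13.7, 13.1 and 14.4 in ESC11 and 0.250, 0.460 and 0.318 in fibroblasts. COL4A5 and COL4A6, neighbouring chains of the basement membrane, averaged 11.8 ± 0.876 and 3.00 ± 0.134 against 0.804 ± 0.179 and 0.0103 ± 0.00449. The common type IV chains COL4A1 and COL4A2 went down instead, by 1.58 and 1.26 on the log2 scale. COL18A1 and COL7A1 were not called and averaged 230.0 ± 28.5 and 218 ± 3.57 in ESC11 and 331 ± 18.3 and 109.8 ± 2.58 in fibroblasts.

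Enzymes that build collagen fell in 18 of 19 cases, with a median of -2.4. LOX, which cross-links fibrils, read 6.34, 6.54 and 5.83 in ESC11 and 288, 273 and 292 in fibroblasts, and P4HA3, a prolyl hydroxylase subunit, 1.18, 1.12 and 0.835 and 81.7, 80.7 and 79.6. SERPINH1, the collagen chaperone, remained at 363 ± 47.3 in ESC11 against 805 ± 43.1. PCOLCE2, an enhancer of procollagen cleavage, was the member not called, at 64.98 ± 5.72 and 83.6 ± 2.71.

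Of 24 tested genes of the secretory pathway none rose and 9 fell, with a median of -0.70. None of the chaperones HSPA5, HSP90B1, CALR, CANX, PDIA3, PDIA4, PDIA6 and DNAJB11 was called, with log2 differences from -0.44 for HSPA5 to 0.07 for CANX. The falls were mostly on stress regulators and on the coat that exports large cargo. CREB3L1, a membrane-bound factor that drives collagen secretion, read 2.73, 3.22 and 2.68 in ESC11 and 169, 159 and 165 in fibroblasts. SEC24D, a coat subunit used by procollagen, read 17.8, 17.4 and 17.1 and 95.5, 88.7 and 90.9, and ATF6, a sensor of unfolded protein, 11.3, 11.8 and 11.2 and 59.9, 58.002 and 60.8. With median-ratio scaling 13 of the 24 fell.

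Matrix glycoproteins and proteoglycans fell in 21 of 24 cases, with a median of -4.09. TNC, a glycoprotein of remodelling matrix, read 1.34, 0.920 and 1.01 in ESC11 and 1739, 1931 and 1814 in fibroblasts, a difference of -9.78 ± 0.08. FMOD, a small proteoglycan that guides fibril assembly, read 0.438, 0.308 and 0.246 and 511, 489 and 489.7, and FN1, fibronectin, averaged 19.8 ± 0.407 and 2697 ± 48.2. SPARC, a collagen-binding glycoprotein, fell from 1598 ± 142 to 436 ± 52.4. The exceptions were FBLN1 and EFEMP1, both of the fibulin family. FBLN1 read 40.3, 35.2 and 39.01 in ESC11 and 0.555, 0.838 and 0.747 in fibroblasts, and EFEMP1 23.7, 24.3 and 26.7 and 2.55, 2.09 and 1.62.

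Basement membrane genes exchanged members. Of 10 tested, 7 fell and 2 rose, with a median of -1.47. LAMA4, the laminin chain of mesenchymal tissue, read 1.23, 0.868 and 1.14 in ESC11 and 66.3, 55.5 and 61.8 in fibroblasts, and LAMA1, the chain of the early embryo, 6.58, 5.46 and 6.02 and 0.610, 0.247 and 0.410. AGRN, a heparan sulfate proteoglycan, rose by 2.39 ± 0.08, and HSPG2, perlecan, fell by 2.98 on the log2 scale. LAMC1, the shared gamma chain, averaged 70.1 ± 1.19 and 134 ± 2.60 and was not called.

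Integrins, the receptors for these matrices, did not move as a block. Of 18 tested, 4 rose, 5 fell and 9 were not called, with a median of -0.26. Over all loci 28.3% rose and 15.3% fell. ITGA8, a receptor for RGD ligands, read 0.113, 0.122 and 0.142 in ESC11 and 198, 198 and 196 in fibroblasts. ITGA5, the fibronectin receptor chain, read 18.01, 21.2 and 22.2 and 289, 303 and 299. ITGB4, the hemidesmosomal chain, went the other way, with 21.2, 23.2 and 22.7 in ESC11 and 0.440, 0.591 and 0.558 in fibroblasts. Its partner ITGA6, a laminin receptor chain, averaged 43.003 ± 0.713 and 50.99 ± 3.09 and was not called, and ITGB1, the common beta chain, fell from 956 ± 14.6 to 214 ± 5.00.

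Contractile and actin genes fell in 21 of 28 cases and rose in none, with a median of -2.22. ACTA2, smooth muscle actin, read 1.02, 1.26 and 1.21 in ESC11 and 1857, 1784 and 1986 in fibroblasts, a difference of -9.76 ± 0.06 (adjusted p = 1.3e-10). TAGLN, an actin-binding protein of smooth muscle, read 10.5, 10.6 and 12.4 and 1584, 1628 and 1687, and ACTG2, the enteric actin, 0.168, 0.449 and 0.613 and 452, 443 and 497. Tropomyosins were graded. TPM1, TPM2 and TPM4 fell by 3.65, 4.25 and 2.94 on the log2 scale, whereas TPM3 averaged 423 ± 6.80 and 323 ± 6.75 and was not called. SRF and MKL1, the factor and co-factor that drive such genes, were also not called, at 43.1 ± 1.08 and 70.01 ± 6.70 in ESC11 against 34.3 ± 0.375 and 50.9 ± 1.19. Caveolae genes fell in 4 of 6 cases with a median of -1.94, led by CAVIN3 and CAV1, coat and scaffold of these membrane pits, at 0.714 ± 0.239 and 41.5 ± 2.11 in ESC11 against 47.2 ± 1.87 and 369.7 ± 14.8.

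The filament systems were exchanged. Of 9 intermediate filament genes 3 rose and 4 fell, with a median of 0.44. KRT18, a keratin of simple epithelium, read 445, 431 and 447 in ESC11 and 0.0283, 0 and 0 in fibroblasts, and KRT19 242, 259 and 245 and 0, 0.0346 and 0.0552. VIM differed by -7.01 ± 0.05 and DES by -6.28 ± 0.08. A row named KRT79 read 1152, 1194 and 1201 and 0.529, 0.514 and 0.765, but it spans 307363 bp, and in the RefSeq annotation of another build KRT8 and KRT18 lie close to that gene, so the value may not be that of KRT79 alone. In the nuclear lamina, LMNA, the A-type lamin of differentiated cells, read 29.5, 28.3 and 26.4 in ESC11 and 872, 853 and 894 in fibroblasts. LMNB2, a B-type lamin, was higher in ESC11, with 72.7, 73.03 and 71.6 and 25.02, 27.3 and 25.8, and LMNB1 averaged 123 ± 4.53 and 80.03 ± 2.32 and was not called.

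Mesenchymal transcription factors fell in 23 of 29 cases and rose in none, with a median of -2.84. PRRX1 and PRRX2, homeobox factors of limb and body wall mesenchyme, were both high in every fibroblast library and under 0.4 in every ESC11 library. PRRX2 read 156, 159 and 173 in fibroblasts, and PRRX1 79.8, 92.9 and 83.9. TWIST1, an inducer of mesenchymal fate, read 0, 0 and 0.0335 in ESC11 and 47.5, 46.4 and 51.7 in fibroblasts, and ZEB1, a repressor of CDH1, averaged 0.183 ± 0.0844 and 64.1 ± 1.29. PRRX1, PRRX2, TWIST1 and ZEB1 passed the filter through the fibroblast libraries, so the filter set their direction. TBX15, a factor of the skeleton and dermis, fell by 6.16, but its fibroblast libraries read 182, 12.8 and 159.5, with replicate 2 far below the others. TCF4 and GATA6 were not called, with ESC11 means of 9.47 ± 0.651 and 1.05 ± 0.102 against 12.3 ± 0.486 and 0.926 ± 0.164.

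All 15 tested HOX genes fell, with a median of -2.32, and another 17 with an annotated row were below the filter. HOXC8, a thoracic-level gene, read 2.42, 1.54 and 2.09 in ESC11 and 335, 324 and 359 in fibroblasts, far above every other HOX gene in fibroblasts. HOXC6 followed at 17.03 ± 0.934, HOXA5 at 12.6 ± 1.34 and HOXB3 at 10.7 ± 3.25, and the most posterior tested members, HOXA10 and HOXC10, reached 1.06 ± 0.0550 and 3.45 ± 0.565. In ESC11 all tested HOX genes other than HOXC8 had means under 0.4. Those genes passed the filter through the fibroblast libraries, so the filter largely fixed their direction and the count of 15 is no test of it.

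**Figure D3:**
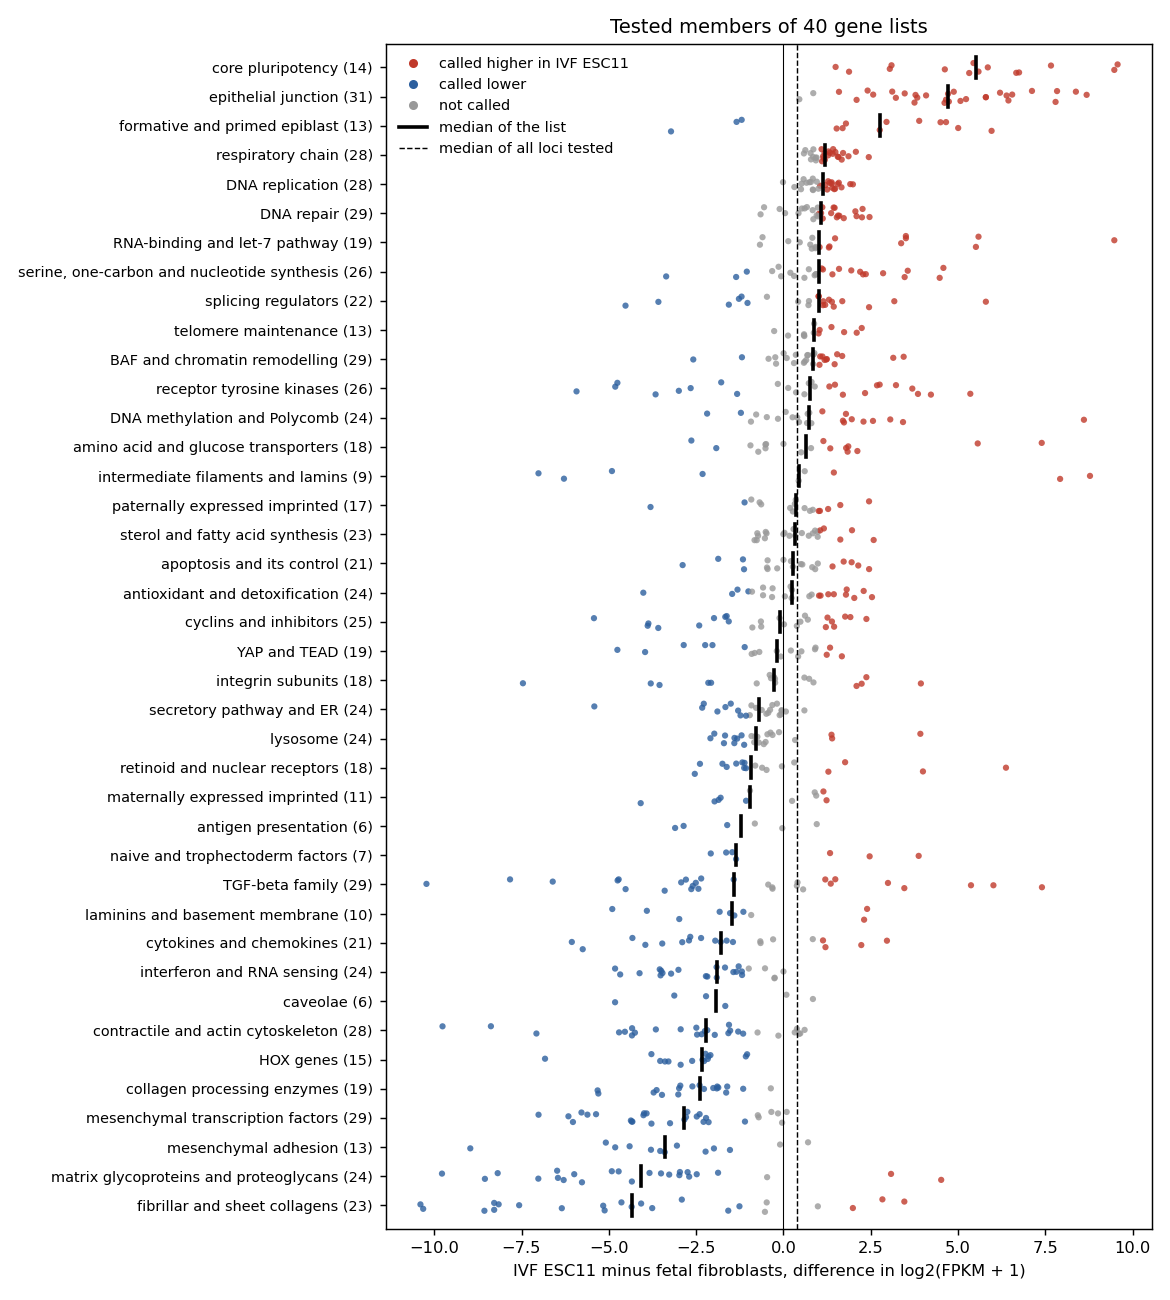
Each point is a tested gene of 1 of 40 lists (number tested in brackets), placed by the log2 difference between ESC11 and fibroblasts; red points were called higher, blue lower and grey not called. Thick black bars are list medians, from -4.35 for collagens to 5.51 for core pluripotency genes, and the dashed line marks the median of 0.40 over all loci tested.

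**Figure D4:**
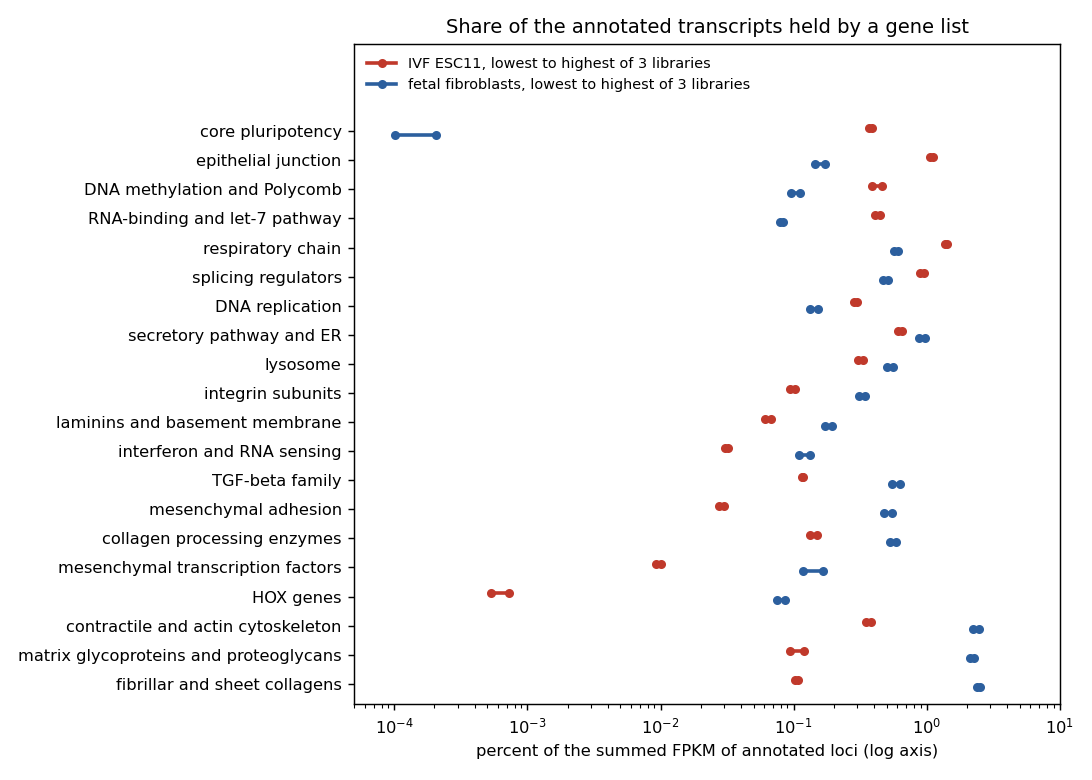
The x axis is the percent of the summed FPKM of annotated loci held by a gene list (log axis), with a bar from the lowest to the highest of 3 libraries in ESC11 (red) and fibroblasts (blue). The 2 cell types do not overlap in the 20 lists drawn. Over all 41 lists the shares overlap in 3, those of receptor tyrosine kinases, sterol and fatty acid synthesis, and retinoid and nuclear receptors.

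The TGF-beta family divides into a branch that signals through NODAL and activin and keeps primed stem cells undifferentiated, and ligands and storage proteins of connective tissue. Of 29 tested genes 8 rose and 15 fell, with a median of -1.42. On the first branch FOXH1, the partner of SMAD2 in NODAL signalling, read 179, 196 and 181 in ESC11 and 0.0190, 0.185 and 0.110 in fibroblasts. FST, which binds activin, read 169.7, 160.2 and 173 and 1.68, 1.87 and 1.33, and LEFTY2, a feedback inhibitor of NODAL, 52.4, 59.03 and 37.1 and 0.192, 0.242 and 0.172. The activin receptors ACVR2B and ACVR1B rose by 3.46 ± 0.06 and 1.20 ± 0.05, the latter 0.84 and not called with median-ratio scaling. INHBA, an activin subunit gene, went the other way and was lower, at a log2 difference of -4.75.

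On the connective tissue side the ligand genes TGFB1, TGFB2 and TGFB3 and the storage genes LTBP1, LTBP2 and LTBP3 all fell, while BMP7, an epithelial ligand, rose and BMP4 was not called. GREM1, a BMP antagonist, read 0.0285, 0.0797 and 0.202 in ESC11 and 244, 244 and 260.0 in fibroblasts, and LTBP2, a latent-TGF-beta binding protein, 0.413, 0.404 and 0.364 and 135, 135 and 134. TGFBR2, the type II receptor, averaged 24.4 ± 1.44 and 672 ± 92.8, while TGFBR1 averaged 18.5 ± 0.362 and 12.2 ± 0.324 and was not called. Among the SMAD factors that both branches use, SMAD3 fell by 2.60 on the log2 scale, whereas SMAD2 and SMAD4 were not called at -0.32 ± 0.06 and 0.40 ± 0.04. ID1, ID2 and ID3, which answer to BMP signals, were lower by log2 differences of -1.42 ± 0.05, -4.52 ± 0.07 and -2.51 ± 0.06.

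Receptor tyrosine kinases moved in both directions. Of 26 tested, 11 rose and 8 fell, beside 28.3% and 15.3% of all loci, with a median of 0.76. ERBB3, an epithelial receptor for neuregulins, read 50.9, 50.3 and 50.98 in ESC11 and 0.324, 0.200 and 0.286 in fibroblasts, and KIT, the stem cell factor receptor, 83.95, 80.3 and 85.2 and 4.68, 4.78 and 5.04. PDGFRB and PDGFRA, the platelet-derived growth factor receptors, averaged 1.44 ± 0.230 and 0.448 ± 0.291 in ESC11 against 147 ± 3.92 and 39.3 ± 2.78. The collagen receptors of the DDR family went apart, with DDR1 at 123 ± 3.31 against 18.5 ± 1.17 and DDR2 at 3.71 ± 0.110 against 58.7 ± 2.51. Among receptors for FGF, a component of the ESC medium, FGFR3 and FGFR4 rose by 2.34 ± 0.09 and 3.69 ± 0.09, whereas FGFR1 and FGFR2 were not called, at 64.7 ± 1.11 and 54.5 ± 1.71 in ESC11 against 36.7 ± 1.04 and 42.3 ± 1.78. FGF7, a ligand that mesenchyme sends to epithelium, was listed at 0 in every ESC11 library and read 507, 480.4 and 492 in fibroblasts.

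The YAP pathway relays cell shape and contact to TEAD factors. Of its 19 tested genes 3 rose and 6 fell (1 and 9 with median-ratio scaling), with a median of -0.19. TEAD1 fell from 91.3 ± 3.52 to 18.5 ± 0.526, while TEAD2 read 75.7, 77.3 and 71.2 in ESC11 and 22.4, 22.9 and 23.03 in fibroblasts. The target genes CCN1, CCN2, ANKRD1 and AXL were lower, with CCN2 at 33.3, 34.8 and 27.9 in ESC11 and 252, 227 and 232 in fibroblasts, but AJUBA was higher by 1.24, and AMOTL1 and AMOTL2 were not called at 0.51 and -0.91. YAP1 itself averaged 21.2 ± 0.740 and 38.4 ± 0.846 and was not called, and its relative WWTR1 fell by 1.11.

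Genes of DNA replication rose in 15 of 28 cases, those of DNA repair in 16 of 29 and those of telomere maintenance in 6 of 13, and none fell, with medians of 1.12, 1.08 and 0.88. Median-ratio scaling left 8, 12 and 3 of them, with 1 repair gene lower, beside 19.1% of all loci higher and 20.5% lower under that scaling. The telomere count was then near the share over all loci. MCM2, a subunit of the replicative helicase, read 159, 160.1 and 160.1 in ESC11 and 36.6, 38.7 and 43.7 in fibroblasts, and CDC6, which loads that helicase, 14.3, 14.3 and 13.1 and 2.68, 3.41 and 2.82. PARP1, which marks DNA breaks, read 149, 146 and 156 and 29.9, 31.2 and 30.5. The end-joining genes XRCC6 and LIG4 were not called, at 32.2 ± 0.928 and 6.75 ± 0.618 in ESC11 against 34.8 ± 1.29 and 11.2 ± 0.551. TERT, the telomerase subunit, was above 0 on both sides, with 16.1, 16.99 and 16.7 in ESC11 and 2.55, 2.35 and 3.35 in fibroblasts.

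In the cell cycle list, 7 genes rose and 9 fell of 25 tested, beside 28.3% and 15.3% of all loci. With median-ratio scaling 5 rose and 12 fell. The median was -0.11, and the falls were on the brakes and on the D-type arm. CDKN2A, a senescence-linked inhibitor locus, was listed at 0 in all ESC11 libraries and read 37.6, 44.2 and 44.6 in fibroblasts, and CDKN2B was listed at 0 against 12.7, 13.6 and 14.5. CDKN2C read 0.113, 0.176 and 0.261 and 15.8, 17.03 and 16.7. CCND3 and CDK6, a D-type cyclin and its kinase, averaged 90.9 ± 46.6 and 1.19 ± 0.0303 in ESC11 against 449 ± 55.9 and 25.3 ± 1.03, and RB1 fell from 13.6 ± 0.337 to 2.68 ± 0.227. CCNE1, the cyclin of entry into S phase, rose, with 34.5, 32.5 and 34.03 in ESC11 and 5.91, 5.33 and 5.85 in fibroblasts. CDKN2D, of the same inhibitor family as CDKN2A, rose as well, by 1.92 ± 0.05.

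Of 21 genes of apoptosis and its control, 5 rose and 4 fell, near the 28.3% and 15.3% of all loci. Their median of 0.27 turned to -0.08 with median-ratio scaling. PMAIP1 and BBC3, which trigger mitochondrial death, averaged 57.3 ± 2.17 and 12.8 ± 1.47 in ESC11 against 9.68 ± 0.889 and 3.18 ± 0.274 in fibroblasts, and CDKN1A, a cyclin-dependent kinase inhibitor, 62.8 ± 0.661 against 117 ± 7.62 and was not called. On the death receptor side CASP8 read 0.366, 0.605 and 0.486 in ESC11 and 9.64, 9.84 and 10.4 in fibroblasts, and TNFRSF10B fell by 1.87.

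Of 26 genes of serine, one-carbon and nucleotide synthesis, 13 rose and 3 fell, with a median of 1.01. The rises included genes of glycine and threonine breakdown and of purine synthesis. AMT, of the glycine cleavage system, read 47.03, 44.4 and 45.2 in ESC11 and 1.12, 1.19 and 0.590 in fibroblasts, and TDH, threonine dehydrogenase, 20.2, 22.5 and 20.96 against 0 in every fibroblast library. PPAT, the first enzyme of purine synthesis, read 32.7, 31.6 and 31.9 and 1.60, 1.98 and 1.85, and all 6 purine genes tested on that route (PPAT, PFAS, PAICS, ATIC, GART and ADSL) rose. Serine synthesis did not follow. PSAT1 fell, with 21.6, 22.9 and 18.1 in ESC11 and 232, 214 and 221 in fibroblasts, PSPH fell by 1.05, and PHGDH, the first enzyme, averaged 112 ± 3.79 and 140.2 ± 7.63 and was not called. MTHFD2, the mitochondrial folate enzyme, fell from 80.5 ± 16.99 to 30.5 ± 2.85.

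Of 18 amino acid and glucose transporters tested, 8 rose and 2 fell, with a median of 0.65 (6 and 4 with median-ratio scaling). SLC7A3, a cationic amino acid carrier, read 188, 175 and 185 in ESC11 and 0.0796, 0.146 and 0.0568 in fibroblasts, while its relative SLC7A1 averaged 30.8 ± 0.545 and 44.5 ± 1.68 and was not called. SLC2A3, a high-affinity glucose carrier, read 288, 292 and 294 and 5.00, 5.36 and 5.23, and SLC2A1, the common glucose carrier, averaged 89.3 ± 3.29 and 128 ± 5.41 and was not called. SLC7A11, the cystine carrier, fell, with 4.00, 4.50 and 4.50 and 34.9, 29.7 and 32.2. SLC7A8, a neutral amino acid carrier outside the list, was among the 12 largest rises, with 398, 385 and 406 and 0.505, 1.09 and 0.643.

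Sterol and fatty acid genes were mostly not called. Of 23 tested, 5 rose and none fell, with a median of 0.34, and with median-ratio scaling 3 rose and 4 fell around a median of -0.01. SCD, a desaturase, read 257, 239 and 256 in ESC11 and 62.5, 63.9 and 64.5 in fibroblasts, and FASN, the fatty acid synthase, rose by 1.63 ± 0.05.

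Respiratory chain genes rose in 19 of 28 cases and fell in none, with a median of 1.18 (10 and 0 with median-ratio scaling). UQCRFS1, the iron-sulfur subunit of complex III, read 133, 140.2 and 136 in ESC11 and 23.6, 24.5 and 24.8 in fibroblasts, and UQCRH, its hinge subunit, 416, 447 and 377 and 102, 92.8 and 97.5. At least 1 tested subunit of each of complexes I to V rose. Of 24 antioxidant genes 9 rose and 4 fell, beside 28.3% and 15.3% of all loci, with a median of 0.24 that turned to -0.01 with quantile normalization and -0.17 with median-ratio scaling, where 6 rose and 5 fell. SOD1, the cytosolic superoxide dismutase, read 562, 576 and 546 in ESC11 and 115, 112 and 113 in fibroblasts, and PRDX6, a peroxiredoxin, 150.2, 148 and 156 and 25.4, 25.4 and 25.1. HMOX1, the heme oxygenase induced by stress, fell, with 11.4, 11.8 and 11.02 and 200.2, 211 and 189.

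Lysosomal genes fell in 9 of 24 cases and rose in 3, with a median of -0.78 (14 and 2 with median-ratio scaling). TFEB, the master factor of lysosome genes, fell from 4.69 ± 0.469 to 0.439 ± 0.0638, and the proteases CTSH and CTSA by 2.09 and 1.70 on the log2 scale.

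Interferon and RNA-sensing genes fell in 19 of 24 cases and rose in none, with a median of -1.91. Members near 0 in ESC11, such as RSAD2 and IFIT3, passed the filter through the fibroblast libraries, which set their direction. The falls included sensors and effectors. IFIH1 and TLR3, which detect double-stranded RNA, averaged 0.395 ± 0.0431 and 0.0808 ± 0.0431 in ESC11 against 5.33 ± 0.429 and 11.2 ± 0.562. RSAD2, an antiviral enzyme, was listed at 0 in all ESC11 libraries and read 24.9, 21.3 and 27.8 in fibroblasts, and IFIT3 read 0.258, 0.181 and 0.197 and 22.5, 17.9 and 20.1. IRF3, MAVS and IRF7, the factor, adaptor and inducible factor of the pathway, were not called, at ESC11 means of 16.1 ± 0.796, 21.4 ± 1.12 and 8.87 ± 0.518 against 16.1 ± 0.516, 25.7 ± 0.239 and 10.9 ± 1.60.

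Of 6 antigen presentation genes 3 fell and none rose, with a median of -1.22. B2M, the light chain of MHC class I, read 28.7, 25.9 and 25.2 in ESC11 and 229.5, 223 and 255 in fibroblasts, and SLA-8, a class I heavy chain, was not called at 7.02 ± 0.504 and 7.20 ± 0.0804. Class I genes are near-identical copies, and how the authors treated reads shared between them is not given in the sources used here. Of 21 cytokine genes 13 fell and 4 rose, with a median of -1.80. IL33, an alarmin, read 0, 0.0304 and 0.0410 and 66.2, 66.8 and 68.9, and CSF1, the macrophage growth factor, 0.0900, 0.0994 and 0 and 55.9, 56.8 and 55.5. CXCR4 and ACKR3 bind the same chemokine and went apart, with CXCR4 at 7.49, 8.14 and 6.26 in ESC11 against 0.0428, 0.0465 and 0.0912 and ACKR3 at 2.09, 1.62 and 2.00 against 55.2, 55.1 and 61.1.

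Of 18 genes of retinoid signalling and nuclear receptors, 4 rose and 9 fell, with a median of -0.94. NR6A1, an orphan receptor of the early embryo, read 346, 386 and 364 in ESC11 and 3.84, 2.86 and 3.64 in fibroblasts, a difference of 6.37 ± 0.09. The glucocorticoid receptor NR3C1 fell from 13.1 ± 0.545 to 1.43 ± 0.208, and CYP26B1, which breaks down retinoic acid, from 4.73 ± 0.547 to 0.0892 ± 0.0523.

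Imprinted genes were on in both cell types in most cases. Of 17 paternally expressed genes tested, 5 rose and 2 fell, near the 28.3% and 15.3% of all loci. Their median was 0.35, near the 0.40 over all loci, but with median-ratio scaling 2 rose and 5 fell around -0.04. SNRPN, a splicing component, read 159, 153 and 149.9 in ESC11 and 27.7, 27.5 and 26.8 in fibroblasts, a difference of 2.45 ± 0.04, and SGCE, a sarcoglycan, 6.87, 8.69 and 10.9 and 133, 134 and 137, a difference of -3.81 ± 0.14. PEG3, a zinc finger gene, averaged 4.58 ± 0.139 and 0.807 ± 0.0770. NNAT, a membrane proteolipid, PLAGL1, a zinc finger factor, and GNAS, a signalling locus with imprinted promoters, were not called, at differences of 0.32 ± 0.06, 0.19 ± 0.07 and 0.35 ± 0.05. DLK1 and RTL1, of another paternally expressed cluster, were below the filter, with 0.470 for RTL1 as the highest value in any of the 6 libraries.

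Of 11 maternally expressed genes tested, 2 rose and 5 fell, with a median of -0.96 (0 and 6 with median-ratio scaling). PHLDA2, a growth restrainer of the placenta, read 1.99, 0.556 and 0.312 in ESC11 and 24.9, 27.7 and 39.3 in fibroblasts, and GRB10, an adaptor that limits insulin signalling, averaged 14.6 ± 0.920 and 53.4 ± 1.81. IGF2R, the receptor that clears IGF2, rose by 1.14 ± 0.09, but was 0.74 and not called with median-ratio scaling. PPP1R9A rose by 1.23 ± 0.30 on a row of 982 bp, and was 0.94 without fibroblast replicate 1 and 0.84 with median-ratio scaling, both not called. Several of these genes are maternally expressed in some tissues alone in other mammals, and the table gives no allele.

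The parthenogenetic lines give the same genes without a paternal genome. Of 13185 loci tested between ESC11 and the mean of both lines, 129 (0.978%) differed, 62 (0.47%) of them higher and 67 (0.508%) lower in ESC11. Of 17 paternally expressed genes tested 8 were higher in ESC11 and 9 were not called, and all 11 maternally expressed genes were not called. The genes SNRPN, SGCE, NAP1L5, PLAGL1, NNAT, MAGEL2, PEG3 and DIRAS3 were those higher in ESC11 than in that mean on the log2 scale, but MAGEL2 averaged more in ESC-3, at 21.4 FPKM against 14.9 in ESC11 and 0.596 in ESC-7. SNRPN averaged 0.143 ± 0.144 FPKM in ESC-3 and 0.126 ± 0.0866 in ESC-7, and SGCE 0 in all 3 libraries and 0.0318 ± 0.0550. Both comparisons share the ESC11 libraries. SNRPN was thus above the fibroblast level in ESC11 and below it in both parthenogenetic lines, and SGCE was below the fibroblast level in all 3 stem cell lines.

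**Figure D5:**
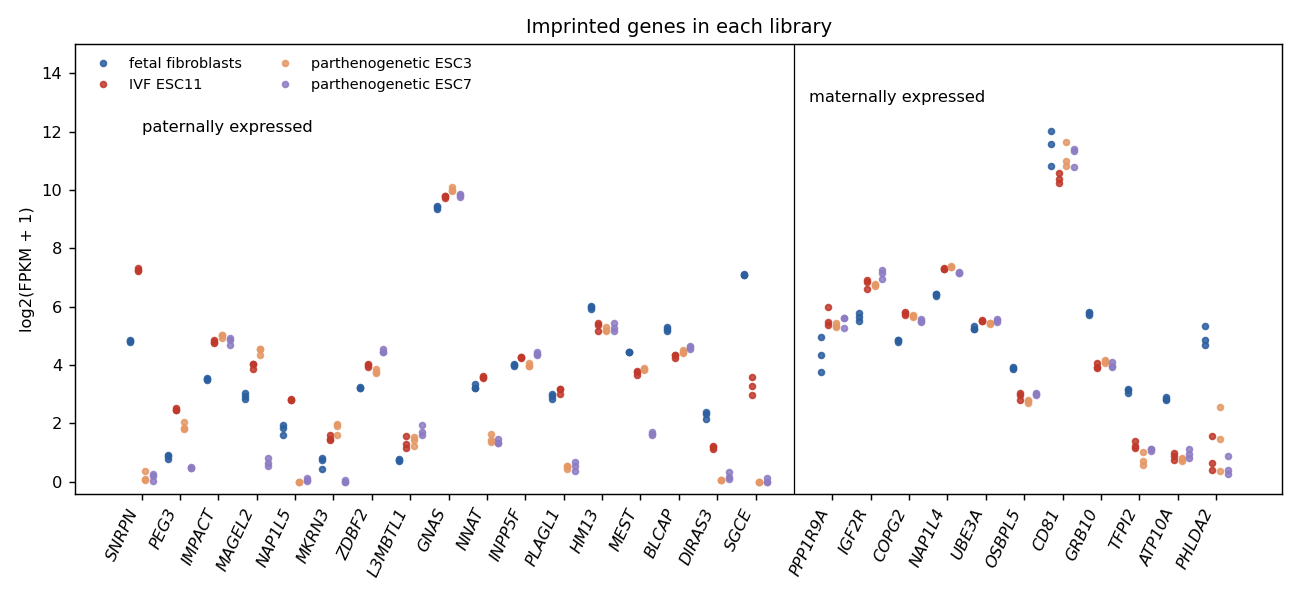
The y axis is log2(FPKM + 1) and each point is 1 library, for fetal fibroblasts (blue), ESC11 (red) and parthenogenetic ESC-3 (orange) and ESC-7 (purple), 3 libraries each. SNRPN, NAP1L5, PLAGL1, NNAT and SGCE read between 0 and 2.09 FPKM in the parthenogenetic lines and higher in ESC11 and fibroblasts, and MAGEL2, MKRN3, PEG3 and MEST are low in ESC-7 but not in ESC-3.

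Among the 6 most abundant annotated loci of each group, VIM, COL1A1 and PLXNA2 of the fibroblast loci were lower in ESC11, by log2 differences of -7.01 ± 0.05, -8.56 ± 0.04 and -3.50 ± 0.34, and the other loci were not called. EF1ALPHA, a translation elongation factor, read 7741, 7021 and 7089 FPKM in ESC11 and 5971, 5963 and 6221 in fibroblasts, and BETA-ACTIN 3231, 3150.3 and 3092 and 3989, 3983 and 4372, and neither was called. HSBP1, a heat shock factor binding protein on a row of 948 bp (log2 difference -0.81, not called), read 21274, 19723 and 14963 and 42646, 48753 and 16393, and ELL, an elongation factor of RNA polymerase II, 448, 12432 and 454 and 513, 498 and 6907. At both loci the groups overlapped, with 1 high library in each group for ELL and 1 low fibroblast library for HSBP1. MT3, a metallothionein, and SGPP2, a lipid phosphatase on a row of 219 bp, were among the 12 largest rises with uneven ESC11 libraries, at 517, 1766 and 644 and 242, 472 and 323. At the other end, SLC1A5, a carrier of neutral amino acids, read 124, 128 and 130.3 in ESC11 and 131, 123 and 128 in fibroblasts, and YWHAZ, a 14-3-3 adaptor, 462, 462 and 494 and 480.4, 469.9 and 476. With median-ratio scaling these genes differed by -0.40 and -0.41.

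Called loci were spread over all chromosomes. The X chromosome had the highest share of higher loci, 34.9% of 424 tested, and the lowest share of lower ones, 10.6%, without a test of that difference. On the autosomes 23.7% to 31.7% of tested loci were higher, and the largest shares lower were 21.8% on chromosome 16 and 21.0% on chromosome 15. The longest unbroken run of lower loci, 7 on chromosome 2 from 49163323 to 50758481, held BTBD10, ARNTL, BMAL1, TEAD1, PARVA, MICAL2 and DKK3, of which ARNTL and BMAL1 are names of the same clock gene. On chromosome 11, 69962332 to 72006790, a run of 7 higher loci held SOX21, ABCC4 and CLDN10. Lower loci spanned a median of 31760 bp of genome, higher loci 24191 bp and loci not called 25673 bp.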

How the data were processed

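PolyA RNA was sequenced from pig cells, and the authors deposited 1 table of FPKM values for 12 libraries, of which 6 entered the main comparison. Per the submitters' processing notes, STAR 2.4.0b, Cufflinks 2.1.1 and the build Sscrofa10.2 were used. Strand setting and the treatment of reads shared between genes are not given in the sources used here. The deposited FPKM table holds no counts, so the depth of each library is unknown and no counting interval is given. Columns left unused numbered 0.

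From the deposited FPKM, log2(FPKM + 1) was fitted with limma 3.58.1 in R 4.3.3 (2 group means, variance moderated with a trend on mean level, 4 residual degrees of freedom). Annotated rows with FPKM of at least 1 in at least 3 of the 6 libraries were tested, and p-values were adjusted over all 12818 by the Benjamini-Hochberg method. A call needed an adjusted p under 0.05 together with a log2 difference of 1 or more in size. A 12-library fit of the same kind compared ESC11 with the mean of both parthenogenetic lines. Further steps ran in pandas 2.3.3, numpy 2.4.6 and matplotlib 3.10.9 under Python 3.11.15. The fit was tested on simulated data of this comparison with 12818 loci. Of 200 loci moved by 1.5 on the log2 scale 97.5% were recovered with 0 false calls, and of 200 moved by 3, 99.5% with 2 false calls. The moved loci were drawn from those with a mean log2(FPKM + 1) of at least 2, so recovery at lower levels is unknown. No shift in scaling between the groups was simulated.

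Symbols came from the table, or from an Ensembl name list that matched 10943 of 20140 IDs and named 58 tested loci. For the 1286 tested symbols on several rows, the row of highest mean FPKM was used. The comparison's members and the 41 gene lists (1036 genes, 904 with an annotated row, 806 tested) were chosen with earlier results of these data known. Genes were named by rule: the 12 largest calls in each direction with a mean of at least 5 FPKM and no overlap, the 6 most abundant loci of each group, the 6 most equal loci of at least 100 FPKM in both, up to 3 calls per direction and any exception in each list, and a fixed set of markers. Some genes that the rule selects are not reported here. Other list members named in the text, mostly those not called, were chosen after their values were seen. Same-numbered libraries of the 2 groups deviated together with correlations of 0.03, 0.033 and 0.057. These were small but above those of all differently numbered libraries, -0.052 to 0.016. The main fit did not pair the libraries, and a fit with the number as a block is given below. Alternatives covered the pseudocount, filter, scaling, rows used, variance model, thresholds, replicate block and each library left out.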

Additional observations from a re-analysis of the deposited data

Results flagged for a closer look

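The 904 list genes with an annotated row and the genes named by rule were searched for differences between ESC11 and the mean of the parthenogenetic lines. Of them 18 differed in the tested contrast, beside 129 (0.978%) of all 13185 loci. This comparison with the parthenogenetic mean shares the ESC11 libraries with the one above. All differences are ESC11 minus that mean on the log2 scale. Imprinted genes read from the paternal copy gave SNRPN 7.1, SGCE 3.25, NAP1L5 2.77, PLAGL1 2.61, NNAT 2.17, MAGEL2 1.41, PEG3 1.28 and DIRAS3 1.05. The lines were unlike at MAGEL2, which averaged 21.4 FPKM in ESC-3 and 0.596 in ESC-7 against 14.9 in ESC11. PEG3 averaged 2.75 in ESC-3 and 0.406 in ESC-7 against 4.58 in ESC11. For SNRPN the adjusted p in limma was 4.64e-13. The other genes higher in ESC11 were MX1, an interferon-induced GTPase, at 1.95, FUT4, a fucosyltransferase, at 1.65, ANGPT1, a vascular growth factor, at 1.27, and TAP2, a peptide transporter, at 1.13. MX1 averaged 23.3 FPKM in ESC-3 and 2.18 in ESC-7 against 33.0 in ESC11, so the lines differ from each other as well. In the same order ANGPT1 averaged 1.39 and 6.81 against 9.42, and TAP2 0.0310 and 0.669 against 1.87. Genes lower in ESC11 were SLC1A3, a glutamate carrier, at -1.5, HSBP1 at -1.44, HOXC8 at -1.42, DDR2 at -1.34, TWIST2, a mesenchymal factor, at -1.2 and TNFRSF10B at -1.15. SLC1A3 averaged 15.3 FPKM in ESC-3 and 38.1 in ESC-7 against 7.91 in ESC11. HOXC8, DDR2, TWIST2 and TNFRSF10B also averaged less in ESC11 than in fibroblasts, where HOXC8 reached 339 FPKM and DDR2 58.7. HSBP1 averaged less as well, at 18653 in ESC11 and 35931 in fibroblasts, but was not called between them.

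Rows without annotation, which were left out of the main test, held signal in ESC11 for 3 listed genes at or near 0 in fibroblasts. TRIM71, a stem cell RNA-binding protein, averaged 42.0 FPKM in ESC11 and at most 0.0423 in a fibroblast library. DPPA3, a maternal factor that protects DNA methylation, averaged 2.20 FPKM and was listed at 0 in all fibroblast libraries. L1TD1, of the core pluripotency list, went the other way on such a row, with means of 0.570 FPKM in ESC11 and 1.84 in fibroblasts, and was not called at -0.86. A row of 124 bp named KCNQ1, an imprinted potassium channel, read 1959, 3297 and 1079 FPKM in ESC11, a mean of 2112, and was listed at 0 in all fibroblast libraries.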

How the results depend on the processing

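The count of 5591 called loci became 3431 (2123 higher) with a pseudocount of 5, 11454 (7430 higher, 4024 lower) with no fold minimum, and 2080 (1177 higher, 903 lower) with a log2 minimum of 2. Without each library in turn it ranged from 5563 to 5605, with 3596 to 3637 higher and 1951 to 1981 lower. With the replicate number as a block, 5590 loci were called, and 3625 higher and 1961 lower calls were shared with the fit without it. The 129 loci that differed between ESC11 and the parthenogenetic mean became 265 with a pseudocount of 0.1 and 41 with one of 5, 130 with the block, and 127 to 135 without each library in turn. The causes of these shifts in the parthenogenetic count were not tested. Of 243 named genes with a log2 difference, 196 kept their direction and side of the threshold in every refit that tested them, 47 gained or lost a call in at least 1, and 0 reversed with a call. The fold minimums were not applied to single genes, and the filter at 5 FPKM tested 220 of the 243. Leaving out a library changed 3 of them: HSBP1 was called at -1.31 without fibroblast replicate 3, PPP1R9A lost its call at 0.94 without fibroblast replicate 1, and GPX7 lost its call at -0.91 without fibroblast replicate 3 and -0.88 without ESC11 replicate 1. FPKM carries no depth, so values near 0 have no stated precision, and short rows can take very large values.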

Other observations

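Of the list genes, 28 had their signal on rows without annotation alone, which were not part of the main test. With those rows included in the limma fit, 3 of the 28 were higher in ESC11 and 14 lower, beside 28.2% and 16.4% of all 17323 loci, and 7 overlapped between the groups. The 5 genes below were chosen after their values were seen. PEG10, an imprinted gene of retrotransposon origin, read 80.4, 79.2 and 85.01 FPKM in ESC11 and 1397, 1390.2 and 1540 in fibroblasts. TGFB1I1, a focal adhesion co-activator, read 4.89, 4.74 and 4.38 in ESC11 and 233, 231 and 237 in fibroblasts. GPX1, the main cytosolic glutathione peroxidase, read 0.256, 0.429 and 0.157 against 94.8, 92.4 and 97.3. Among patterning genes, HOXB6 averaged 0.00599 against 13.7 and FOXF1, a factor of visceral mesenchyme, 0.0264 against 8.04.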
